A study of Rattus norvegicus with 36 samples.

Results

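The liver RNA of 12 male rats given the lowest doses of decabromodiphenylethane (DBDPE), a brominated flame retardant, was compared with that of 6 rats given its corn oil vehicle. The 12 are every array of the 0.1 mg/kg group (n = 6) and of the 0.97 mg/kg group (n = 6), out of 36 arrays in the series. They were picked by dose, with earlier results of these data known. The vehicle group (n = 6) received corn oil without DBDPE. The other 18 arrays, 6 each at 9.71, 97.1 and 970 mg/kg, share the fit and give a comparison of the low doses that does not use the vehicle animals. All animals were Sprague Dawley rats from Harlan, 7 weeks old at the start, on the NTP-2000 diet. Gavage at 5 ml/kg was repeated daily for 5 days, and 1 day after the last dose liver tissue was sampled from the left lobe.

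Each array, of the Affymetrix 3′ in vitro transcription kind, gave 31042 probe sets after 57 controls were left out. A probe set is a group of probes for 1 transcript, and its value is a log2 signal. A single gene is named by 20826 of them, several genes by 436 and none by 9780, which gives 14217 genes. Medians of the 18 arrays of the low doses and vehicle lay between 5.07 and 5.12, and their pairwise correlations across probe sets between 0.993 and 0.996. The 3′ minus 5′ difference of the beta-actin controls, a measure of RNA integrity, was 1.13 ± 0.07 (SD, n = 12) at the low doses and 1.12 ± 0.07 (SD, n = 6) in vehicle. The mean distance between arrays over all probe sets was 41.9 among low dose arrays, 43.0 between low dose and vehicle arrays and 44.1 among vehicle arrays, in log2 units. Low dose arrays thus lay no farther from vehicle arrays than vehicle arrays lay from each other. Between low dose and higher dose arrays the mean distance was 42.0. Hepatocyte markers stood above the array medians, and none of the 15 measured lay below them. Albumin (Alb), the main plasma protein made by hepatocytes, had a mean log2 level of 14.66 on a scale that ends at 14.68.

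DBDPE is used as an additive in plastics and textiles. Many halogenated aromatic compounds are studied in liver for their action on ligand-activated transcription factors. The aryl hydrocarbon receptor (AhR) binds such ligands in the cytoplasm, moves to the nucleus, pairs with ARNT and switches on the cytochrome P450 genes Cyp1a1 and Cyp1a2. The receptors CAR and PXR act likewise on the Cyp2b and Cyp3a genes, and PPARalpha acts on genes of fatty acid oxidation. Liver also holds Kupffer cells, its resident macrophages, with lymphocytes, endothelial and stellate cells. Type I interferon acts in all of them and switches on antiviral genes, many of which carry the interferon-stimulated response element.

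No transcript passed the test at the low doses. With the 12 arrays pooled against vehicle, limma called 0 of 31042 probe sets (0%) at an adjusted p under 0.05, and the smallest adjusted p was 0.654. At an unadjusted p under 0.05 there were 1483 (4.78%), 770 of them higher (2.48%) and 713 lower (2.3%) at the low doses. By dose, limma called 0 (0%) at 0.1 mg/kg, with 1384 (4.46%) at an unadjusted p under 0.05. At 0.97 mg/kg it called 0 (0%), with 1526 (4.92%). Between 0.97 and 0.1 mg/kg it called 0 (0%), with 1326 (4.27%). The log2 difference from vehicle was above 0 for 49.7% of probe sets and lay between -0.23 and 0.23 from the 1st to the 99th percentile. The whole range was -0.97 to 1.09, and 40 probe sets were past 1.5-fold in either direction.

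**Figure D1:**
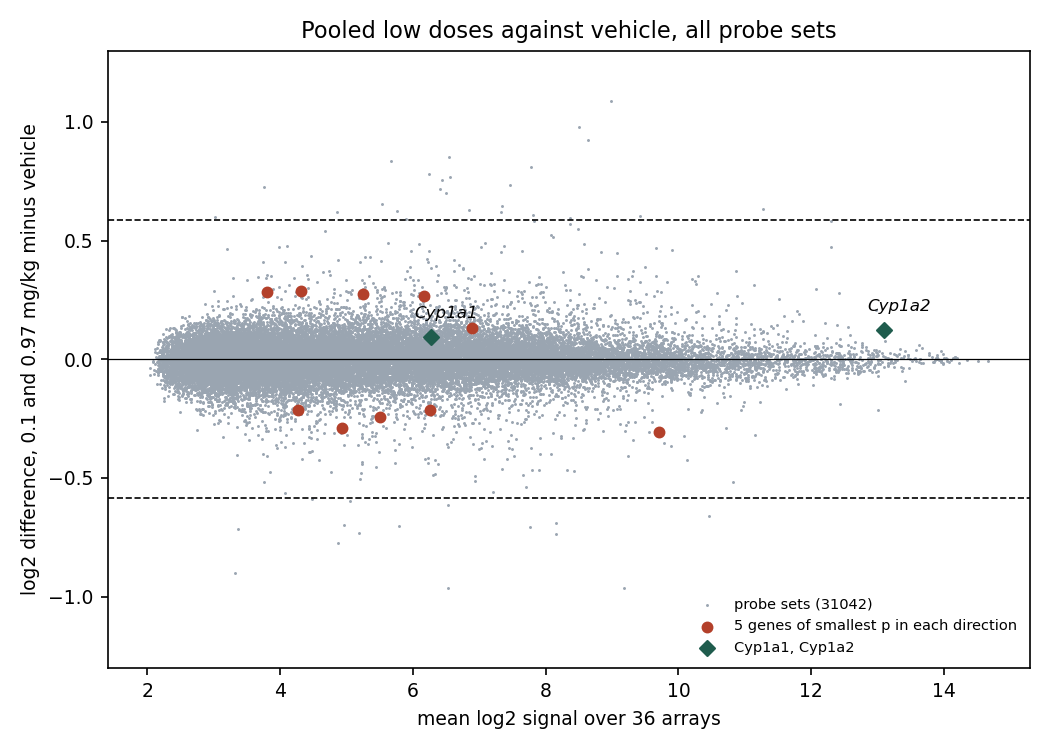
Log2 difference of the pooled low doses (12 arrays) from vehicle (6 arrays) for each probe set, against its mean log2 level over 36 arrays, with the genes of smallest p and Cyp1a1 and Cyp1a2 marked. Nearly all points lie between -0.23 and 0.23, and none of the 31042 passed limma at an adjusted p under 0.05.

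What the arrays can exclude was read from the 95% intervals of the limma fit. The interval of the pooled difference lay within 1.5-fold of vehicle for 30576 probe sets (98.5%) and did not for 466. It lay within 2-fold for 99.71%. Equivalence tests, a pair of one-sided limma tests per probe set with Benjamini-Hochberg adjustment over all probe sets, placed 30695 (98.88%) within 1.5-fold at an adjusted p under 0.05. They placed 30976 within 2-fold. By dose the interval lay within 1.5-fold for 97.89% at 0.1 mg/kg and for 97.83% at 0.97 mg/kg. The median interval reached 0.14 on either side of the pooled log2 difference and 0.16 at a single dose.

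These shares describe signals, not transcripts, because probe sets near background can vary little whatever their transcript does. Of the 4 bands of equal size by mean level, the dimmest (log2 levels of 2.05 to 3.64) had 99.85% of intervals within 1.5-fold, and the brightest (7.07 to 14.66) had 97.44%. The table holds no detection calls, so no count of expressed genes was made. For 58 of 14217 genes the interval did not exclude 2-fold, and for 5 it did not exclude 4-fold. Those with the widest reach, chosen after their values were seen, are genes whose level differed widely between animals of 1 group. Onecut1, a transcription factor of hepatocytes and bile ducts, had log2 levels of 6.21 to 10.20 (median 9.67) at 0.1 mg/kg, 6.49 to 10.44 (median 7.87) at 0.97 mg/kg and 5.90 to 9.50 (median 7.18) in vehicle. Its pooled log2 difference was 0.92 (95% interval -0.43 to 2.28). The groups overlapped in part, with 5 low dose animals above every vehicle animal and 0 below them all. Egr1, an immediate early transcription factor, had -0.96 (-2.07 to 0.14). Ubd, an interferon-inducible ubiquitin-like protein, had -0.56 (-2.28 to 1.15), the glucuronosyltransferase Ugt2b had -0.0028 (-2.25 to 2.25) and the intestinal cadherin Cdh17 had -0.69 (-2.10 to 0.72). Ugt2b levels were 5.06 in 0.1 mg/kg replicate 6, 6.16 in 0.97 mg/kg replicate 1 and 5.78 in vehicle replicate 3. Medians of these groups were 12.80, 12.79 and 12.68, so such single animals widen its interval.

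Cyp1a1 and Cyp1a2, both lower at the low doses than at 97.1 and 970 mg/kg, did not pass the exact permutation test at the low doses. Cyp1a1 log2 levels were 4.18 to 4.75 (median 4.67) at 0.1 mg/kg, 4.50 to 5.07 (median 4.69) at 0.97 mg/kg and 4.35 to 4.76 (median 4.55) in vehicle. The groups overlapped, and all these levels lie at the low end of the scale. The pooled difference was 0.09 (exact permutation p = 0.366, two-sided, or 0.439 adjusted over 6 tests). It was 0.03 at 0.1 mg/kg (exact permutation p = 0.786) and 0.16 at 0.97 mg/kg (exact permutation p = 0.193). The 95% interval of the pooled difference depends on which arrays share the spread. It ran from -0.40 to 0.59 with all 36 arrays, where the standard error was 0.243, and from -0.10 to 0.28 with the 18 arrays of low dose and vehicle, where the standard error was 0.0911. The narrower interval excludes a Cyp1a1 signal more than 1.22-fold that of vehicle for the mean of the low doses, not for each dose. At 0.97 mg/kg alone the interval from the same arrays ran from -0.061 to 0.378, past the pooled bound of 0.28.

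Cyp1a2, an abundant constitutive enzyme of caffeine metabolism, had log2 levels of 12.79 to 13.07 (median 13.00) at 0.1 mg/kg, 12.71 to 13.02 (median 12.97) at 0.97 mg/kg and 12.58 to 12.93 (median 12.85) in vehicle. Of the 12 low dose animals, 8 lay above every vehicle animal, though the lowest overlapped with vehicle. The pooled difference was 0.13, with a 95% interval of 0.02 to 0.23 when all arrays share the spread. With only the low dose and vehicle arrays, the interval ran from -0.0053 to 0.256, which includes no difference. The limma adjusted p with all arrays was 0.998. The exact permutation p was 0.0548 (0.289 adjusted over 6 tests), and it was 0.0187 to 0.184 with single replicates left out. By dose the difference was 0.14 at 0.1 mg/kg (exact permutation p = 0.0974) and 0.11 at 0.97 mg/kg (exact permutation p = 0.158). The exact test passed 0.05 before adjustment without replicate 4 or 5 of the 0.1 mg/kg group, replicate 2 of the 0.97 mg/kg group or vehicle replicate 2, 3 or 6, and after cyclic loess. The smallest p these tests can give is 1.08e-04 for 12 against 6 and 0.00216 for 6 against 6. The vehicle mean of Cyp1a2 was 12.81, the lowest of the 6 group means. The means were 12.95 at 0.1 mg/kg, 12.92 at 0.97 mg/kg, 12.94 at 9.71 mg/kg, 13.32 at 97.1 mg/kg and 13.67 at 970 mg/kg.

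The list of AhR targets, which holds both, showed no common direction. Of 8 measured, 4 had a pooled difference above 0, and the list median was 0.02, against 0.00 for all probe sets. It was -0.0012 without replicate 1 of the 0.97 mg/kg group, 0.06 without vehicle replicate 5 and 0.09 with only the brighter members, at or above the median level. Aldh3a1, an aldehyde dehydrogenase, had -0.09 (-0.22 to 0.04). Ahrr, the repressor of the receptor, had 0.07 (-0.09 to 0.23), and Tiparp, a poly-ADP-ribosyltransferase that dampens it, had 0.11 (-0.16 to 0.37). Nqo1, a quinone reductase, had levels of 7.02 to 9.14 (median 7.30) at 0.1 mg/kg, 6.93 to 7.55 (median 7.31) at 0.97 mg/kg and 7.14 to 8.96 (median 7.34) in vehicle. Replicate 5 of the 0.1 mg/kg group and replicate 5 of vehicle stood well above the others, and the difference was -0.19 (-0.79 to 0.42).

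A panel of 30 liver genes of drug metabolism, lipid, bile acid and stress pathways had 26 members with a probe set of their own. Of these, 10 had values above 0 and 16 below, and limma called 0. The interval lay within 1.5-fold for 20 and within 2-fold for 25. The exception was Cyp7a1, which limits the rate of bile acid synthesis. Its log2 levels were 9.33 to 11.79 (median 10.97) at 0.1 mg/kg, 10.38 to 11.54 (median 11.17) at 0.97 mg/kg and 10.52 to 11.93 (median 11.61) in vehicle. The groups overlapped, with a difference of -0.52 (-1.19 to 0.16). The CAR and PXR targets Cyp3a23-3a1 and Cyp3a2 had 0.06 (-0.10 to 0.22) and 0.02 (-0.05 to 0.09). The PPARalpha target Cyp4a1, a fatty acid hydroxylase, had 0.05 (-0.18 to 0.28). Hmox1, heme oxygenase, had 0.15 (-0.0042 to 0.31), and Gclc, of glutathione synthesis, had -0.04 (-0.17 to 0.10).

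An unadjusted p under 0.05 was reached by 4 of the 26 panel genes (4.78% of all probe sets). These were Cyp1a2, Txnrd1 (thioredoxin reductase, 0.13), Dio1 (the deiodinase that activates thyroid hormone, -0.19) and Mki67 (a proliferation marker, -0.29). Dio1 had levels of 6.98 to 7.49 (median 7.17) at 0.1 mg/kg, 6.84 to 7.46 (median 6.96) at 0.97 mg/kg and 7.23 to 7.48 (median 7.29) in vehicle. Of the low dose animals 9 lay below every vehicle animal and 1 lay above them all. The male-specific Cyp2c11 had 0.04 (-0.05 to 0.12), and Cyp8b1, of bile acid synthesis, had -0.09 (-0.33 to 0.15). Fasn, fatty acid synthase, had -0.05 (-0.38 to 0.28), and its other probe set had 0.05. The acute phase genes Crp and A2m had -0.05 (-0.15 to 0.06) and -0.34 (-0.80 to 0.12).

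**Figure D2:**
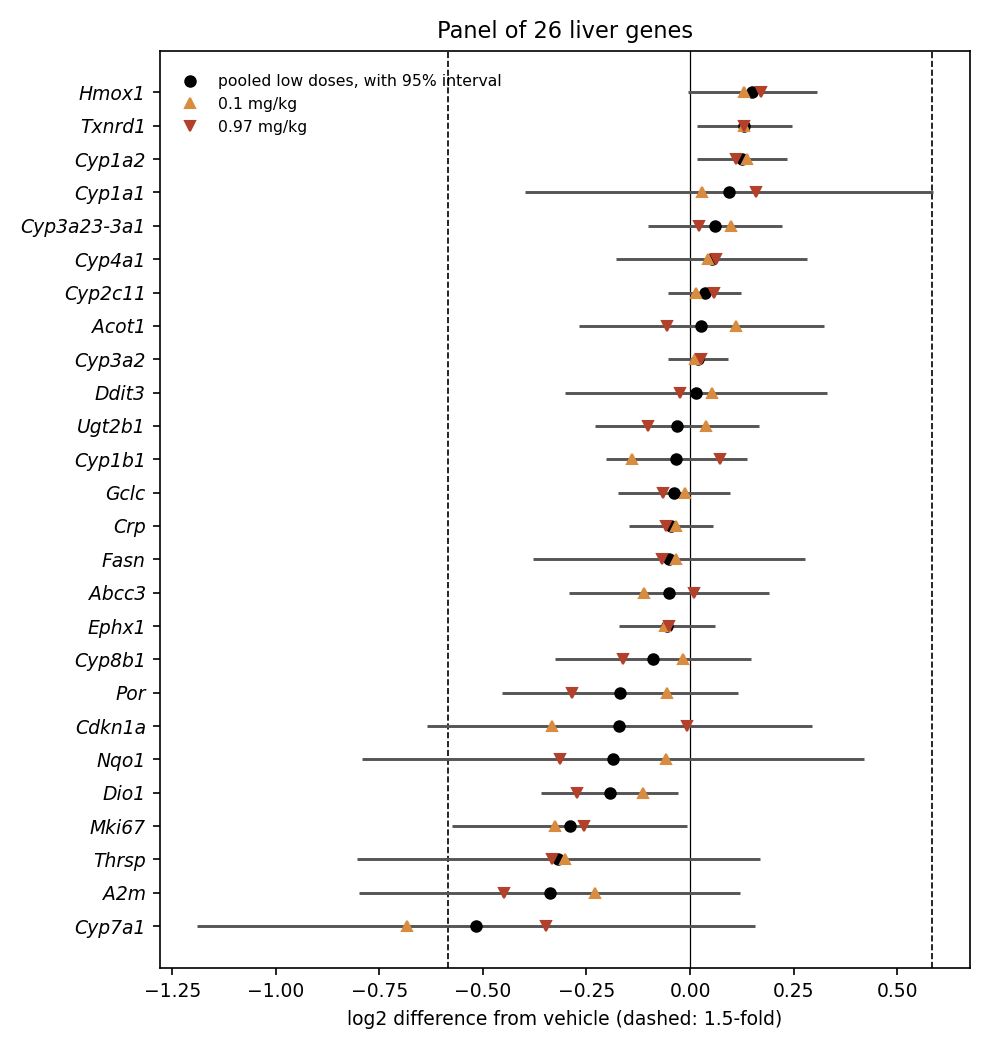
Log2 difference of the pooled low doses from vehicle with its 95% interval for the 26 panel genes, from the limma fit of 36 arrays, with triangles for the single doses and dashed lines at 1.5-fold. Intervals of 20 genes lie within 1.5-fold, and that of Cyp7a1 reaches -1.19.

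Gene groups were described by their counts and medians, beside the same over all probe sets. The 32 lists, chosen with earlier results of these data known, hold 540 distinct genes, of which 462 were measured. Limma called 0 of them, and 30 of the 462 had an unadjusted p under 0.05 (4.78% of all probe sets). An interval within 1.5-fold was had by 384 of the 462 (98.5% of all probe sets). Of the list medians 20 lay above 0 and 12 below, and 4 were past 0.1 in size. With single arrays left out or another processing, 13 of the 32 medians changed sign, none of them past 0.03 in size. Another 16 moved by more than 1.5 times, and only those of the interferon, cell cycle and circadian lists did neither. Values of all low dose comparisons with vehicle rest on the same 6 vehicle arrays, so a vehicle group that stands apart from every dose moves them together. Over all probe sets the vehicle mean was the lowest of the 6 group means for 17.2% and the highest for 18.1%. A pooled difference above 0 was had by 49.7% of all probe sets against vehicle and by 50.4% against the higher doses. These shares stand beside every list count below.

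Interferon response genes had the list median farthest from 0. Of 34 measured, 31 had a pooled difference above 0 (49.7% of all probe sets), with a median of 0.21. Limma called 0, and 7 were higher at an unadjusted p under 0.05 (2.48% of all probe sets). The median was 0.16 at 0.1 mg/kg, where 30 members were above 0 (49.6% of all probe sets). There 0 members were higher at an unadjusted p under 0.05 (2.31% of all probe sets) and 1 was lower (2.15%). At 0.97 mg/kg it was 0.30, with 13 higher (2.45% of all probe sets). Against the higher doses the same 12 arrays had a median of 0.01, with 21 of 34 members above 0 (50.4% of all probe sets). The vehicle mean was the lowest of the 6 group means for 27 of 34 members (17.2% of all probe sets) and the highest for 1. For 0.97 minus 0.1 mg/kg the median was 0.18, with 32 of 34 members above 0 (50.3% of all probe sets). In that contrast limma called 0, with 3 members higher (2.2% of all probe sets) and 0 lower (2.07%) at an unadjusted p under 0.05.

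The score of the list, the mean over members of the log2 value less its mean over 36 arrays, was -0.61 to 0.35 (median 0.07) at 0.1 mg/kg. It was -0.38 to 0.49 (median 0.24) at 0.97 mg/kg and -0.47 to 0.33 (median -0.39) in vehicle. In vehicle, 4 animals had scores of -0.47, -0.46, -0.44 and -0.33, and the others had 0.03 and 0.33. Low scores also occurred at the low doses, with -0.61 and -0.42 at 0.1 mg/kg and -0.38 at 0.97 mg/kg, so the groups overlapped over nearly their whole range. Group means were -0.22 ± 0.33 (SD, n = 6) in vehicle, -0.04 ± 0.40 at 0.1 mg/kg, 0.14 ± 0.30 at 0.97 mg/kg, 0.10 ± 0.42 at 9.71 mg/kg, -0.06 ± 0.35 at 97.1 mg/kg and 0.08 ± 0.15 at 970 mg/kg. The pooled median was 0.17 without vehicle replicate 3 and 0.30 without vehicle replicate 1, the animal of score 0.33. Whether the vehicle animals or the low dose animals account for the difference cannot be told from these arrays, and this was not tested.

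The 4 interferon genes of smallest p were Eif2ak2, Oas1b, Ifih1 and Irf9. Eif2ak2, the kinase PKR that senses double-stranded RNA, had log2 levels of 6.44 to 7.47 (median 6.95) at 0.1 mg/kg, 6.59 to 7.52 (median 6.99) at 0.97 mg/kg and 6.38 to 7.16 (median 6.54) in vehicle. Its pooled difference was 0.34 (0.07 to 0.60), and 2 of 12 low dose animals lay above every vehicle animal. Oas1b, an oligoadenylate synthetase family member, had 2.92 to 3.62 (median 3.22) at 0.1 mg/kg, 2.84 to 3.73 (median 3.53) at 0.97 mg/kg and 2.76 to 3.66 (median 2.91) in vehicle. Its difference was 0.34 (0.06 to 0.62), at a level near the bottom of the scale. Ifih1, the RNA sensor MDA5, had 6.37 to 6.84 (median 6.56) at 0.1 mg/kg, 6.42 to 6.82 (median 6.61) at 0.97 mg/kg and 6.21 to 6.78 (median 6.39) in vehicle. In each of these 3 genes vehicle replicate 1 stood above the other vehicle animals.

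Irf9, an interferon regulatory factor, had log2 levels of 6.29 to 7.54 (median 7.23) at 0.1 mg/kg, 6.31 to 7.63 (median 7.40) at 0.97 mg/kg and 6.09 to 7.44 (median 6.49) in vehicle. The difference was 0.48 (0.03 to 0.92), and limma's adjusted p was 0.998 for each of the 4 genes. Against the higher doses the 4 genes had 0.06 (Eif2ak2), 0.01 (Oas1b), -0.02 (Ifih1) and 0.02 (Irf9). The vehicle mean was the lowest of the 6 group means for all 4, which their selection by the contrast with vehicle favours. Mx2, a dynamin-like antiviral GTPase chosen after its values were seen, had levels of 4.35 to 6.90 (median 6.03) at 0.1 mg/kg, 4.74 to 6.86 (median 6.11) at 0.97 mg/kg and 3.98 to 6.58 (median 4.86) in vehicle. Its difference was 0.84 (0.0034 to 1.67), and the groups overlapped.

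The promoters of these 4 genes are shown because the interferon-stimulated response element is the sequence that many such genes share. The windows, of 300 bases ending 50 bases after the gene start, come from RefSeq on GRCr8 and read 5′ to 3′ on the gene's strand. Capitals mark matches of GAAA-NN-GAAA, the core of that element, and of GCGTG, the core to which AhR binds, searched on both strands, so a GCGTG on the other strand reads CACGC. The windows are Eif2ak2 at chr6:21940904-21941203 (plus strand), Oas1b at chr12:41395803-41396102 (minus strand), Ifih1 at chr3:67683919-67684218 (minus strand) and Irf9 at chr15:33065586-33065885 (plus strand).
Eif2ak2 promoter: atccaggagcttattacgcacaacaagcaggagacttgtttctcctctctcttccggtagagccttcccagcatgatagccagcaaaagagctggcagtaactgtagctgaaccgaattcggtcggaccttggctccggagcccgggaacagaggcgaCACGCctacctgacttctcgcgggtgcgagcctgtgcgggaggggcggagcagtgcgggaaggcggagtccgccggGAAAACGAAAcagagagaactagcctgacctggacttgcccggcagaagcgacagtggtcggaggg
Oas1b promoter: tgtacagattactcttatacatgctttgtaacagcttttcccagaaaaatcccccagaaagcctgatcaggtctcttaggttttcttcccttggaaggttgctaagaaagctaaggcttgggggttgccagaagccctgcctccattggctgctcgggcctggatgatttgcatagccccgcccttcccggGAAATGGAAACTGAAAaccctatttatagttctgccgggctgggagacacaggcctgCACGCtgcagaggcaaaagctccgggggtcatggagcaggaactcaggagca
Ifih1 promoter: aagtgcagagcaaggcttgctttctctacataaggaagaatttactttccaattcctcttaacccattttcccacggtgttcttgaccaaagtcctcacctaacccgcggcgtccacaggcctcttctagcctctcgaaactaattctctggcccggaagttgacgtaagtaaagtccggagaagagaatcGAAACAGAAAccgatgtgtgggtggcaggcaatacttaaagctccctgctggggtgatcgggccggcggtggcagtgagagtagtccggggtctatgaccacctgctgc
Irf9 promoter: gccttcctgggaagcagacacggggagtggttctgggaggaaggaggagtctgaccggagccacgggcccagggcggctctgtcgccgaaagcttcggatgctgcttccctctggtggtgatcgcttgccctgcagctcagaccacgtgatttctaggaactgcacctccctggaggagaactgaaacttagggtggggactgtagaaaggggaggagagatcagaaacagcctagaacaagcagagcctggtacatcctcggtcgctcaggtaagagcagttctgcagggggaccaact

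Eif2ak2 held GAAA-NN-GAAA at -16 to -7 from its start and 1 GCGTG at -92 to -88 on the other strand. Oas1b held 2 overlapping matches of GAAA-NN-GAAA, which begin at -59 and -53, and 1 GCGTG on the other strand across the start. Ifih1 held GAAA-NN-GAAA at -59 to -50, and Irf9 held neither sequence in this window. Of all 33469 promoters in the table, 3.92% held GAAA-NN-GAAA and 29.7% held GCGTG. Of the 26 interferon genes on the array with a promoter in the table, 17 (65.4%) held GAAA-NN-GAAA and 7 (26.9%) held GCGTG. The interferon list was drawn up from knowledge of these genes, so that share describes the list. The promoter of Cyp1a2, at chr8:66978100-66978399 (minus strand), held neither sequence and is shown for comparison with the interferon genes.
Cyp1a2 promoter: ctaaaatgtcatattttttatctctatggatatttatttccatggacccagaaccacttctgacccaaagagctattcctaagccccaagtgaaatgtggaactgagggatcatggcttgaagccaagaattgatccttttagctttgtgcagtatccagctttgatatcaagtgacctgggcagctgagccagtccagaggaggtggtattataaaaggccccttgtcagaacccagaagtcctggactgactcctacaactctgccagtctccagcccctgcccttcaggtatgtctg

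Markers of immune cells had values on the same side of vehicle as the interferon genes. Of 16 macrophage and Kupffer cell markers measured, 14 had a pooled difference above 0 (49.7% of all probe sets). The list median was 0.19, and limma called 0. The median was 0.16 at 0.1 mg/kg, 0.23 at 0.97 mg/kg and 0.05 against the higher doses. The vehicle mean was the lowest of 6 for 11 of 16 (17.2% of all probe sets). Clec4f, a lectin of Kupffer cells, had log2 levels of 9.80 to 10.67 at the low doses (mean 10.36 ± 0.28, SD, n = 12) and 9.49 to 10.63 in vehicle (mean 10.04 ± 0.41, SD, n = 6). The groups overlapped, and the difference was 0.32 (0.02 to 0.62). Cd5l, a secreted macrophage protein, had 0.37 (-0.02 to 0.77). Cd163, the hemoglobin scavenger receptor, chosen after its values were seen, had 0.08 (-0.15 to 0.31). The pooled median was 0.10 without vehicle replicate 4, whose score of -0.54 was the lowest of the 18 animals, and was 0.24 without vehicle replicate 1. In whole liver, fewer cells of a type and less RNA per cell cannot be told apart.

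T and NK cell markers had a median of 0.07, with 19 of 21 above 0 (49.7% of all probe sets) and 3 higher at an unadjusted p under 0.05 (2.48%), though 14 of the 21 lay below the array medians. Nkg7, a granule protein of cytotoxic cells, had levels of 4.60 to 5.07 (median 4.83) at 0.1 mg/kg, 4.70 to 5.05 (median 4.98) at 0.97 mg/kg and 4.45 to 5.06 (median 4.59) in vehicle. Its difference was 0.21 (0.03 to 0.39). Il2rb, an interleukin receptor chain, had 0.15, the NK receptor Klrd1 had 0.19 and perforin, Prf1, had 0.30. The T cell receptor genes Cd3d and Cd3e, chosen after their values were seen, had 0.0012 and 0.06. The list median was 0.04 at 0.1 mg/kg and 0.12 at 0.97 mg/kg. Without vehicle replicate 5 the pooled median was 0.04, and with only the brighter members, at or above the median level, it was 0.15.

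Among antigen presentation genes the median was 0.06, and 15 of 19 were above 0 (49.7% of all probe sets). The vehicle mean was lowest for 11 of these 19 (17.2% of all probe sets). Ctss, a lysosomal protease of antigen-presenting cells, had 0.32 (0.01 to 0.64), and B2m had 0.05. The class II gene RT1-Ba had 0.39 (-0.13 to 0.91), while its 3 other probe sets had -0.14, -0.03 and 0.01. The list median ranged from 0.03 without vehicle replicate 4 to 0.14 without vehicle replicate 2. B cell markers had 0.07 with 6 of 7 above 0, and 0.02 to 0.12 with single vehicle animals left out. Neutrophil markers had 0.11 with 7 of 9 above 0. The neutrophil median was 0.03 without replicate 4 of the 0.97 mg/kg group. Their calprotectin genes S100a8 and S100a9 had 0.16 (-0.28 to 0.61) and 0.37 (-0.12 to 0.87). For acute phase genes, which hepatocytes make in inflammation, the median was 0.01 and 12 of 17 were above 0. The summed linear signal of macrophage markers was 7452 to 11360 at the low doses and 6400 to 10150 in vehicle. That of T and NK cell markers was 650 to 879 at the low doses and 616 to 924 in vehicle, and that of interferon genes was 7180 to 13600 at the low doses and 7703 to 13700 in vehicle. The part of these cell types in the interferon values was not tested.

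**Figure D3:**
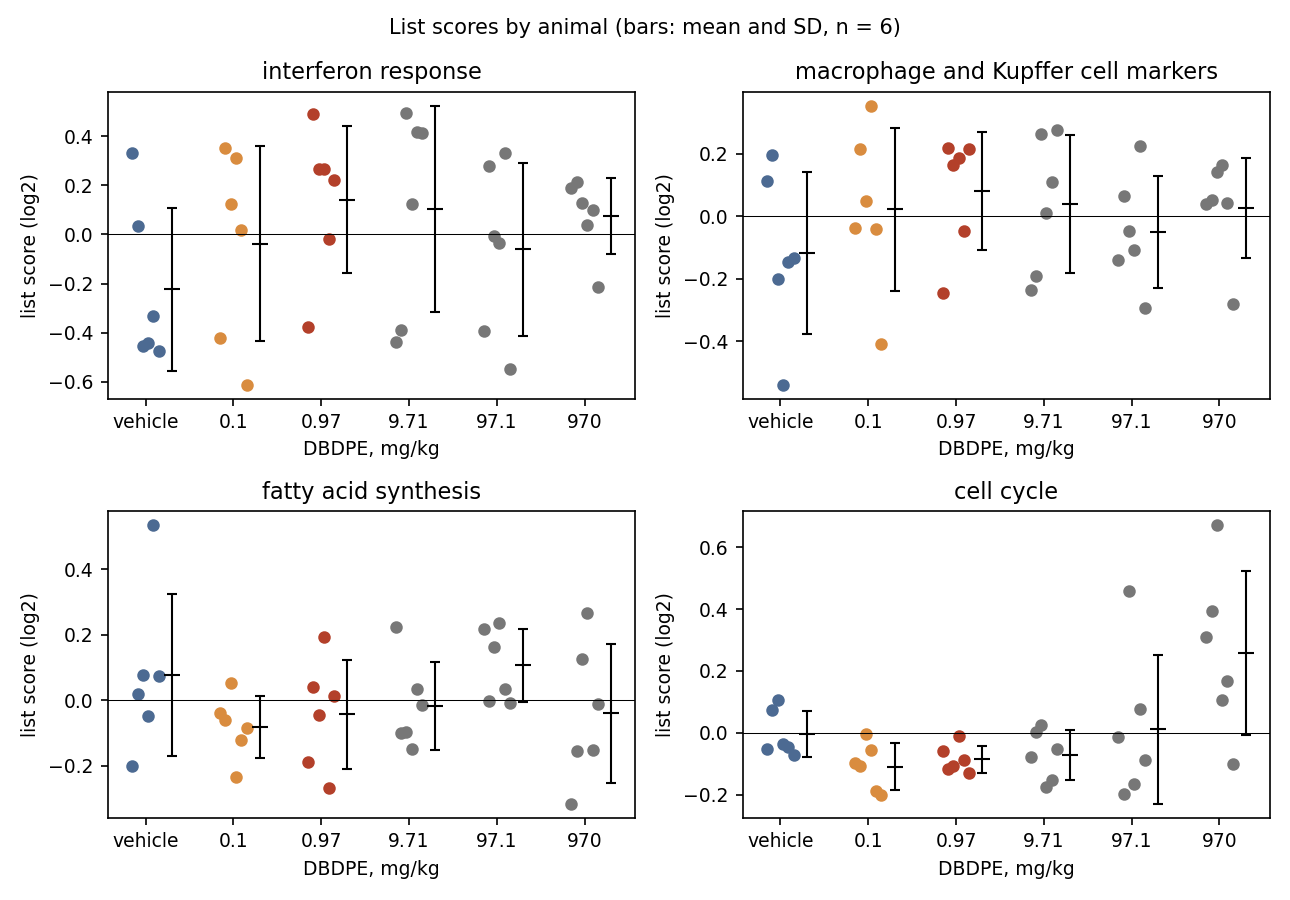
List score of single animals, in log2 units, in each of the 6 groups from vehicle to 970 mg/kg for the interferon, macrophage, fatty acid synthesis and cell cycle lists, with bars for the mean and SD. The vehicle interferon scores run from -0.47 to 0.33, inside the span of -0.61 to 0.49 of the low dose animals.

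Fatty acid synthesis genes had values on the other side of vehicle. Of 20 measured, 2 had a pooled difference above 0 (49.7% of all probe sets), with a median of -0.09, and limma called 0. The median was -0.12 at 0.1 mg/kg, -0.08 at 0.97 mg/kg and -0.07 against the higher doses. The vehicle mean was the highest of 6 for 12 of 20 (18.1% of all probe sets). Scd, the desaturase that makes monounsaturated fatty acids, had log2 levels of 9.80 to 10.55 (median 9.98) at 0.1 mg/kg, 9.95 to 10.92 (median 10.25) at 0.97 mg/kg and 10.29 to 11.93 (median 10.64) in vehicle. Of the low dose animals 8 lay below every vehicle animal. The difference was -0.66 (-1.08 to -0.25), with a limma adjusted p of 0.998, and it was -0.29 against the higher doses.

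Fads2, the delta-6 desaturase of polyunsaturated fatty acids, had levels of 10.90 to 11.32 (median 11.16) at 0.1 mg/kg, 11.00 to 11.35 (median 11.11) at 0.97 mg/kg and 11.26 to 11.44 (median 11.31) in vehicle. The difference was -0.18 (-0.29 to -0.07), with 9 of 12 low dose animals below every vehicle animal. Pklr, liver pyruvate kinase, had -0.21 (-0.45 to 0.02). The median was -0.15 without vehicle replicate 1 and -0.04 without vehicle replicate 5, whose score of 0.53 was the highest of the 18 animals. Sterol synthesis genes, which the factor SREBP2 drives, had 11 of 18 members above 0 and a median of 0.02. Against the higher doses 1 of these 18 was above 0, with a median of -0.07.

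For cell cycle genes the median was -0.09, and 5 of 28 members were above 0 (49.7% of all probe sets). The median was -0.10 at 0.1 mg/kg, -0.09 at 0.97 mg/kg and -0.15 against the higher doses. There, 16 of 28 were lower at the low doses at an unadjusted p under 0.05 (2.46% of all probe sets), and limma called 0. The vehicle mean was the highest of the 6 group means for 2 of 28 members (18.1% of all probe sets). It was the lowest for 3 (17.2%). The higher doses were not alike, with list scores of -0.07 ± 0.08 at 9.71 mg/kg, 0.01 ± 0.24 at 97.1 mg/kg and 0.26 ± 0.26 at 970 mg/kg (SD, n = 6 each). Scores at 9.71 mg/kg, from -0.17 to 0.03, overlapped with those at 0.1 mg/kg, from -0.20 to -0.0034. Mki67 had levels of 3.97 to 4.43 (median 4.19) at 0.1 mg/kg, 3.78 to 4.40 (median 4.36) at 0.97 mg/kg and 4.24 to 4.97 (median 4.35) in vehicle. Cdk1, the mitotic kinase, had 5.60 to 6.12 (median 5.97) at 0.1 mg/kg, 5.68 to 6.03 (median 5.89) at 0.97 mg/kg and 6.00 to 6.39 (median 6.21) in vehicle. Its difference was -0.30 (-0.63 to 0.02), with 9 of 12 low dose animals below every vehicle animal. Tyms, thymidylate synthase, had -0.20 and the spindle motor Kif11 had 0.18, whose other probe set had -0.07. Leaving out single vehicle animals gave medians of -0.11 to -0.07.

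**Figure D4:**
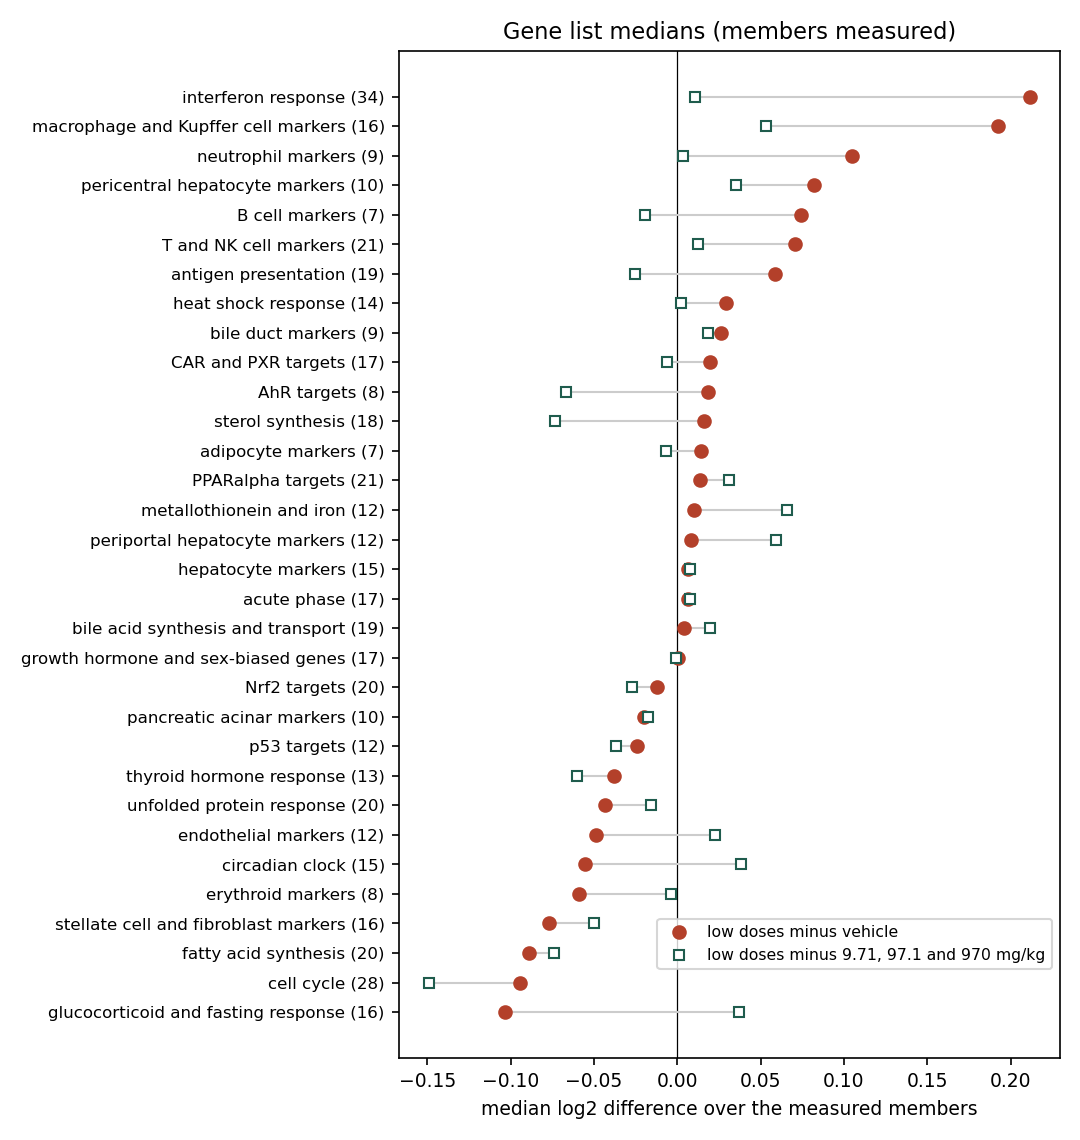
Median log2 difference over the measured members of each of 32 gene lists for the pooled low doses against vehicle (filled) and against the higher doses (open). Interferon (0.21) and macrophage (0.19) lists lie farthest above 0 against vehicle and near 0 against the higher doses, whereas the cell cycle list is below 0 in both comparisons.

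The other lists had medians within 0.10 of 0 apart from glucocorticoid and fasting response genes, at -0.10 with 6 of 16 above 0. That median ranged from -0.18 without vehicle replicate 4 to -0.03 without replicate 3 of the 0.1 mg/kg group, and 5 of the 16 intervals lay within 1.5-fold. Ppargc1a, the coactivator of fasting metabolism, had -0.35 (-0.63 to -0.06), and its 2 other probe sets had -0.19 and -0.33. Stellate cell and fibroblast markers had -0.08 with 1 of 16 above 0, at -0.18 for 0.1 mg/kg and -0.07 for 0.97 mg/kg. Timp1, a metalloproteinase inhibitor, had -0.22 (-0.43 to -0.01). Without vehicle replicate 5 the stellate median was -0.04, and without vehicle replicate 6 it was -0.13. CAR and PXR targets had 0.02 with 12 of 17 above 0, and among them Cyp3a9 had 0.52 (0.0015 to 1.04). PPARalpha targets had 0.01 with 14 of 21, and Angptl4, a lipase inhibitor, had 0.35 (0.01 to 0.69). Nrf2 targets of the antioxidant response had -0.01 with 10 of 20.

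The median for growth hormone and sex-biased genes was 0.0004, with 9 of 17 above 0. Obp3, a male-biased lipocalin, had 11.98 to 13.04 (median 12.44) at 0.1 mg/kg, 12.13 to 13.14 (median 12.53) at 0.97 mg/kg and 11.34 to 12.71 (median 11.96) in vehicle. Its difference was 0.58 (0.16 to 1.00), and the steroid reductase Hsd3b5 had 0.15 (0.03 to 0.28). Thyroid hormone response genes had -0.04 with 5 of 13 above 0, p53 targets -0.02 with 4 of 12, unfolded protein response genes -0.04 with 8 of 20 and heat shock genes 0.03 with 9 of 14. Circadian clock genes had -0.06 with 6 of 15, and the repressor Cry2 had -0.19, whose other probe set had 0.11. Hepatocyte markers had 0.01 with 10 of 15, bile duct markers 0.03 with 7 of 9 and endothelial markers -0.05 with 4 of 12. Without vehicle replicate 5 the thyroid median was -0.0098 and the unfolded protein median -0.0031. Pericentral markers had 0.08 with 7 of 10 above 0 (0.03 without vehicle replicate 5), erythroid markers -0.06 with 2 of 8, metallothionein and iron genes 0.01 with 7 of 12 and bile acid genes 0.0041 with 10 of 19. Markers of tissue near the liver had -0.02 with 4 of 10 above 0 for pancreatic acinar cells and 0.01 with 5 of 7 for adipocytes. Among periportal markers, at 0.01 with 7 of 12, Ass1 of the urea cycle had 12.49 to 12.64 (median 12.59) at 0.1 mg/kg, 12.56 to 12.72 (median 12.63) at 0.97 mg/kg and 12.31 to 12.60 (median 12.51) in vehicle. Its difference was 0.13 (0.04 to 0.23), with 7 of 12 low dose animals above every vehicle animal.

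Single genes of smallest p differed little in size. For 5 probe sets (0.0161%) the low dose and vehicle animals did not overlap, with all 12 above in 3 (0.00966%) and all 12 below in 2 (0.00644%). Ctnna2, an adhesion protein best known from neurons, had log2 levels of 4.28 to 4.75 (median 4.37) at 0.1 mg/kg, 4.31 to 4.47 (median 4.39) at 0.97 mg/kg and 3.99 to 4.28 (median 4.08) in vehicle. Its difference was 0.29 (0.16 to 0.41), with a limma adjusted p of 0.654 and an array level below the median. Celf2, an RNA-binding splicing regulator, had 0.27 (0.12 to 0.41), with levels of 6.08 to 6.48 at 0.1 mg/kg, 6.18 to 6.48 at 0.97 mg/kg and 5.90 to 6.07 in vehicle. Lcmt1, a methyltransferase of protein phosphatase 2A, had -0.31 (-0.48 to -0.14), with levels of 9.28 to 9.74 at 0.1 mg/kg, 9.43 to 9.76 at 0.97 mg/kg and 9.79 to 10.07 in vehicle.

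**Figure D5:**
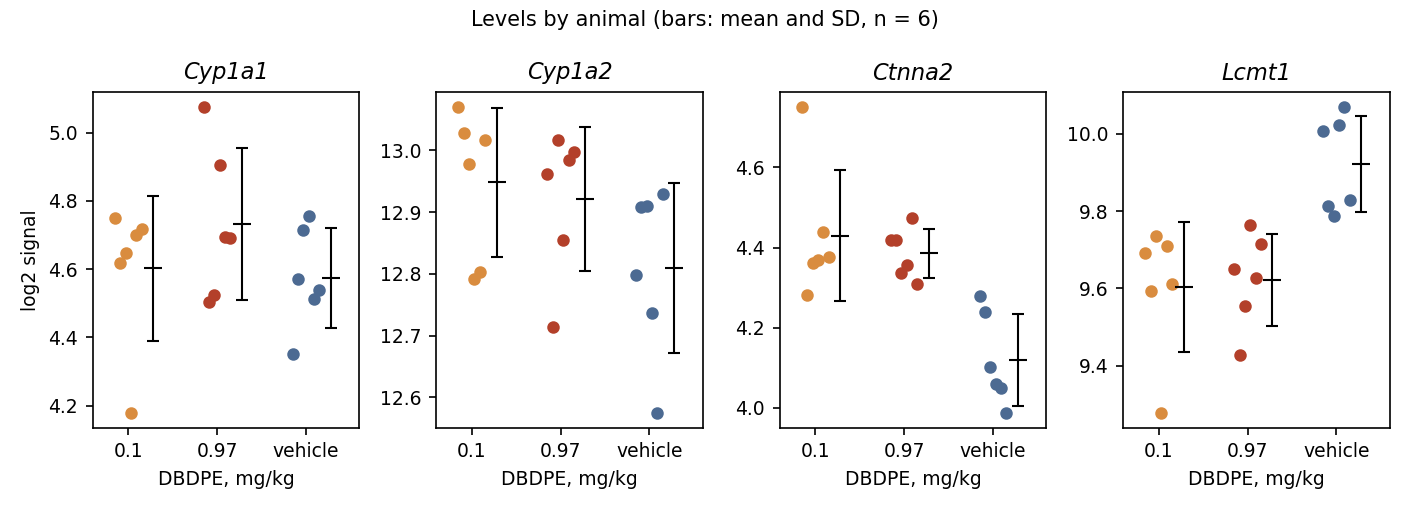
Log2 levels of single animals at 0.1 mg/kg, 0.97 mg/kg and in vehicle (6 points each), with bars for the mean and SD, for Cyp1a1, Cyp1a2, Ctnna2 and Lcmt1. The groups overlap in Cyp1a1 and Cyp1a2, whereas all 12 low dose animals lie above the vehicle animals in Ctnna2 and below them in Lcmt1.

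The other genes of smallest p were Ablim1 (0.28), Miga1 (0.28) and Map3k11 (0.13) above vehicle and Kat6b (-0.24), Mmp16 (-0.29), Cdpf1 (-0.22) and Inpp4b (-0.21) below. In all 10 the vehicle mean was the lowest or the highest of the 6 group means, which selection by this contrast favours. Other probe sets of 4 of these genes had smaller or opposite values. They were 0.09 for Inpp4b, 0.06 and -0.09 for Kat6b, -0.05 and 0.08 for Ablim1 and 0.02 to 0.12 for Celf2. Ablim1 had 0.10, Celf2 0.11, Kat6b -0.09 and Inpp4b -0.06 when the probe sets of a gene were averaged. By dose, the smallest p values also named Klhdc1 (0.25), Cep290 (0.32) and Psg16 (-0.29) at 0.1 mg/kg. At 0.97 mg/kg they named Bpifb4 (0.30), Arhgap15 (0.35), Or6f2 (-0.29) and Rassf8 (-0.24). Limma called none of these.

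Against the higher doses, limma called 3 probe sets (0.00966%) of the 12 low dose arrays, all lower at the low doses, with 1670 (5.38%) at an unadjusted p under 0.05. Cyp1a1 was lower by a log2 difference of -3.24 (-3.61 to -2.88), with a limma adjusted p of 9.73e-15, and Cyp1a2 by -0.38 (-0.46 to -0.30), with a limma adjusted p of 5.64e-07. These values average over unlike doses. Mean Cyp1a1 levels were 4.67 at the low doses, 4.86 at 9.71 mg/kg, 8.06 at 97.1 mg/kg and 10.81 at 970 mg/kg. The third probe set names no gene and had -0.26 with a limma adjusted p of 0.0253, at a level of 3.25 near background. Bag3, a co-chaperone, had 0.24 (0.14 to 0.34), Pard3 of cell polarity 0.24 (0.13 to 0.35) and the kinase Prkd3 0.16 (0.09 to 0.24). E2f1, a factor of the cell cycle, had -0.21 (-0.32 to -0.11). Bag3, Pard3, Prkd3 and E2f1 were named by smallest p, and limma called none of them. Between the low doses, Plet1 (0.36), Matn1 (0.24) and Col11a1 (0.32) were the genes of smallest p with values higher at 0.97 than at 0.1 mg/kg. Slc34a1 (-0.35), Sh3bp4 (-0.39) and Ddb2 (-0.29), a DNA damage sensor, were those with lower values, and none passed limma.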

How the data were processed

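RNA of 36 rat livers was measured on Affymetrix 3′ arrays. The deposited values are log2 signals made by the authors with RMA from the affy package, per the submitters' processing notes, and RMA makes arrays comparable by quantile normalization. Versions and a genome build are not given in the sources used here. Arrays have no count depth, and their number limits the precision.

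A group-means model over 36 arrays was fitted to 31042 probe sets with limma 3.58.1 in R 4.3.3, with p-values adjusted by Benjamini-Hochberg over all probe sets and a threshold of 0.05. The pooled contrast weighs the 0.1 and 0.97 mg/kg groups equally. Cyp1a1 and Cyp1a2 also had exact permutation tests over arrays. Limma was tested on simulated data first. The labels number the replicates, which were taken as separate animals. Limma p-values set a group difference against the spread between animals within groups, estimated over all 36 arrays. A gene is the probe set of highest mean that names it alone, through the platform annotation with symbols updated by RefSeq.

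Members, gene lists and panel were chosen with earlier results of these data known. Named are the 5 genes of smallest p per direction in the pooled contrast, as none passed, 3 in each other contrast, the panel, and up to 4 genes of smallest pooled p per list. Alternatives covered cyclic loess, filters on level, 1 mean value per gene, other thresholds, the spread from 18 arrays, a replicate block and leaving out each replicate. Figures were drawn with matplotlib 3.10.9.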

Additional observations from a re-analysis of the deposited data

Results flagged for a closer look

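Of 231 groups of 6 animals checked, over 32 list scores and 45 genes, 22 held an animal far from the other 5. The rule would flag about 1 in 20 groups of independent, normally spread values. These groups share animals and genes, and some genes were picked by p in these data, so that rate is no yardstick here. No cause was tested.

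Of the list scores, AhR targets had 0.0183 in replicate 5 of the 0.1 mg/kg group (others -0.33 to -0.24) and -0.11 in vehicle replicate 5 (others -0.31 to -0.24). These are the same animals in which Nqo1, a member of that list, stood high. PPARalpha targets had 0.14 in 0.97 mg/kg replicate 5 (others -0.08 to -0.02). Glucocorticoid and fasting genes had -0.29 in 0.97 mg/kg replicate 3 (others -0.02 to 0.09). Bile acid genes had -0.13 in 0.97 mg/kg replicate 2 (others 0.03 to 0.10). Metallothionein and iron genes had 0.25 in vehicle replicate 1 (others -0.07 to 0.01).

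In 0.1 mg/kg animals, log2 levels stood apart for 8 genes. Replicate 1 had 4.75 for Ctnna2 (others 4.28 to 4.44). Replicate 4 had 9.28 for Lcmt1 (others 9.59 to 9.74), 4.18 for Cyp1a1 (others 4.62 to 4.75) and 12.49 for Ass1 (others 12.59 to 12.64). Replicate 5 had 9.14 for Nqo1 (others 7.02 to 7.38) and 11.04 for Cyp8b1 (others 11.37 to 11.45). Replicate 6 had 9.36 for Txnrd1 (others 9.53 to 9.63) and 12.40 for Ephx1 (others 12.67 to 12.76).

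In 0.97 mg/kg animals, replicate 1 had 5.20 for Mmp16 (others 4.88 to 4.95), and replicate 5 had 3.32 for Acot1 (others 2.69 to 2.80) and 3.78 for Mki67 (others 4.22 to 4.40). In vehicle animals, replicate 1 had 7.16 for Eif2ak2 (others 6.38 to 6.65), 3.66 for Oas1b (others 2.76 to 3.04) and 6.78 for Ifih1 (others 6.21 to 6.40). Vehicle replicate 5 had 8.96 for Nqo1 (others 7.14 to 7.55), and replicate 6 had 10.52 for Cyp7a1 (others 11.41 to 11.93).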

How the results depend on the processing

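Limma called 0 probe sets against vehicle, and between 0.97 and 0.1 mg/kg, under every alternative run, and 2 to 3 for the low against the higher doses. As 0 were called against vehicle, that comparison held no call that could change direction. Of the 32 list medians, none of which is a test, 13 changed sign under some alternative or left-out replicate, among them bile acid (-0.017 to 0.016), sterol synthesis (-0.062 to 0.071), growth hormone (-0.036 to 0.027) and Nrf2 (-0.032 to 0.038). The other 19 kept their sign. The share of intervals within 1.5-fold was 97.5% to 98.5%, and 98.06% to 98.52% with single replicates left out. Equivalent probe sets numbered 15234 among those at or above the median level and 14032 with 1 mean value per gene, because fewer features were tested, and 30589 to 30705 with replicates left out. With the replicate block, unadjusted calls for the pooled contrast numbered 1492 and equivalent probe sets 30709. Deviations of same-numbered animals from their group means had r of -0.18 to 0.26 (18 pairs, mean -0.0037), with 3 pairs over 0.1. The labels do not say what the numbers stand for, so whether they pair samples cannot be told. The neutrophil median was 0.21 over probe sets at or above the median level, and 0.032 (without 0.97 mg/kg replicate 4) to 0.15 with replicates left out. Cyp1a2 had an exact permutation p of 0.0323 with a difference of 0.14 after cyclic loess, and differences of 0.078 to 0.15 (exact permutation p of 0.0187 to 0.184) with replicates left out. No detection calls were used, so signals near background limit what the intervals say.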
